A study of Homo sapiens with 6 samples.

Results

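The genes described here are 9 members of the helix-loop-helix family, measured in MV4;11 cells after 3 h of cortistatin A: BHLHE40 and BHLHE41, the inhibitors ID1, ID2, ID3 and ID4, and the E proteins TCF3, TCF4 and TCF12. All 9 are among the 19775 genes of the arrays, and 41 of the 54613 probe sets that are not controls carry one of these symbols alone. For each gene the probe set with the highest mean over all 6 arrays was taken as the main one, and the others stand beside it. BHLHE40 and ID2 brought the group together because they were already known to be higher with the drug on these same arrays. Their differences are therefore a description of these arrays, and nothing rests on their place in a count of calls. The other 7 genes were added as relatives and binding partners.

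MV4;11 is an established cell line from a human acute myeloid leukaemia and carries an MLL-AF4 rearrangement. One group of 3 samples was kept for 3 h in 25 nM CA (cortistatin A by the title of the series) and the other group of 3 samples in the solvent DMSO for the same time. The drug blocks CDK8 and CDK19, protein kinases that associate with the Mediator complex. Both groups come from 1 cell line, at 1 dose and 1 time. The wells were plated in triplicate and are not said to be separate cultures, so every p-value here reflects the spread among these wells alone, and that spread may be technical.

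Helix-loop-helix proteins work as pairs. E proteins such as the products of TCF3, TCF4 and TCF12 pair through this domain, with one another or with tissue-restricted partners such as TAL1 and LYL1, and use an adjacent basic stretch to bind DNA at E-boxes, the motif CANNTG. ID proteins have the pairing domain but no basic stretch, so a pair that contains one cannot bind DNA. BHLHE40 and BHLHE41 are transcriptional repressors that bind the E-box CACGTG and, among other roles, oppose the CLOCK and BMAL1 activators of the circadian clock. In blood cells the balance of E and ID proteins is best known from lymphocyte development, and ID2 is also expressed in the myeloid and dendritic cell lineages.

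The promoters of BHLHE40 and ID2 are shown because these are the 2 genes of the group that stood highest with cortistatin A. Each window is RefSeq sequence of build GRCh38.p14 and runs from 250 bases before the start of the gene to 50 bases after it, on the plus strand, 5′ to 3′, with every match to CANNTG in capitals. The BHLHE40 window is chr3:4979187-4979486 and the ID2 window is chr2:8681806-8682105.
BHLHE40: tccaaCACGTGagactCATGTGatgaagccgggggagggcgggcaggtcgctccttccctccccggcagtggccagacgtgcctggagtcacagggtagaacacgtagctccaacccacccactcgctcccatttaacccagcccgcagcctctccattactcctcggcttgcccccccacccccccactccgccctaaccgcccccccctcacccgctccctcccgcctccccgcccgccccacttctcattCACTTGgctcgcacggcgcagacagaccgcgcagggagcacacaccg
ID2: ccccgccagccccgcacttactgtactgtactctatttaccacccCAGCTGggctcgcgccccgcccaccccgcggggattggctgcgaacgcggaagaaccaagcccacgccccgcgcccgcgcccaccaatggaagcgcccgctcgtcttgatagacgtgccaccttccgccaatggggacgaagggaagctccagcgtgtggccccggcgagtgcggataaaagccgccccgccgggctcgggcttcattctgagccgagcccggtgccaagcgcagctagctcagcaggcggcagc

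The BHLHE40 window holds 3 matches to CANNTG. The first is CACGTG, the form that BHLHE40 itself binds, 245 bases before the start, the next is CATGTG, 234 bases before it, and the last, CACTTG, begins at base 4 of the gene. The ID2 window holds 1 match, CAGCTG, 205 bases before the start. Both strands were searched, and every one of these hexamers is by its letters also a CANNTG. Of all 35116 windows of this length in the RefSeq table, 68.7% hold at least 1 CANNTG and 15.3% hold 3 or more, so E-boxes as such are common. CACGTG is in 7.26% of the windows, CAGCTG in 17.9%, and CATGTG or its reverse complement in 11.1%. Among the relatives, CACGTG also lies in the single BHLHE41 window, 48 bases before the start, in 1 of the 10 TCF4 windows and in 1 of the 5 TCF12 windows, while the ID1, ID3 and TCF3 windows hold no CANNTG. The element TGGCGCC, to which SMAD proteins of the BMP pathway are known to bind near ID genes, is in 5.81% of all windows and in no window of the 9 genes. These matches describe letters only, and no binding was measured.

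Between cortistatin A and DMSO, 2 of the 9 genes, BHLHE40 and ID2, were called at a limma adjusted p under 0.05 over all genes, both higher. Of all genes 0.582% were called, 0.445% higher and 0.137% lower. Since BHLHE40 and ID2 were chosen on this contrast, nothing is read from that count. It was 1 (BHLHE40) without cortistatin A replicate 2 or without DMSO replicate 3, and 0 without any of the other arrays. The change on the log2 scale, cortistatin A minus DMSO, had a median of 0.11 over the 9 main probe sets, beside 0.0065 over all genes. It was above 0 for 6 genes and below 0 for 3. The 6 include BHLHE40 and ID2, which were chosen for being higher, so nothing is read from this median or split. The median is the value of ID4, whose sign turns with the probe set. The arrays of the groups did not overlap for 4 of the 9 genes, BHLHE40, ID2, TCF4 and TCF3, while they did not overlap for 19.4% of all genes (10.2% higher with cortistatin A and 9.22% lower). An unadjusted limma p under 0.05 was reached by 3 of the 9, BHLHE40, ID2 and TCF4, and by 12.6% of all genes. BHLHE40 and ID2 stand in both of these counts by the way they were chosen. The median level of all probe sets was 3.74. The main probe sets of 7 genes exceeded it, and those of BHLHE41 and ID3 were dim, that is, no brighter than it. In RNA from a whole culture, a change in every cell and a change in the share of cells with the transcript cannot be told apart.

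**Figure D1:**
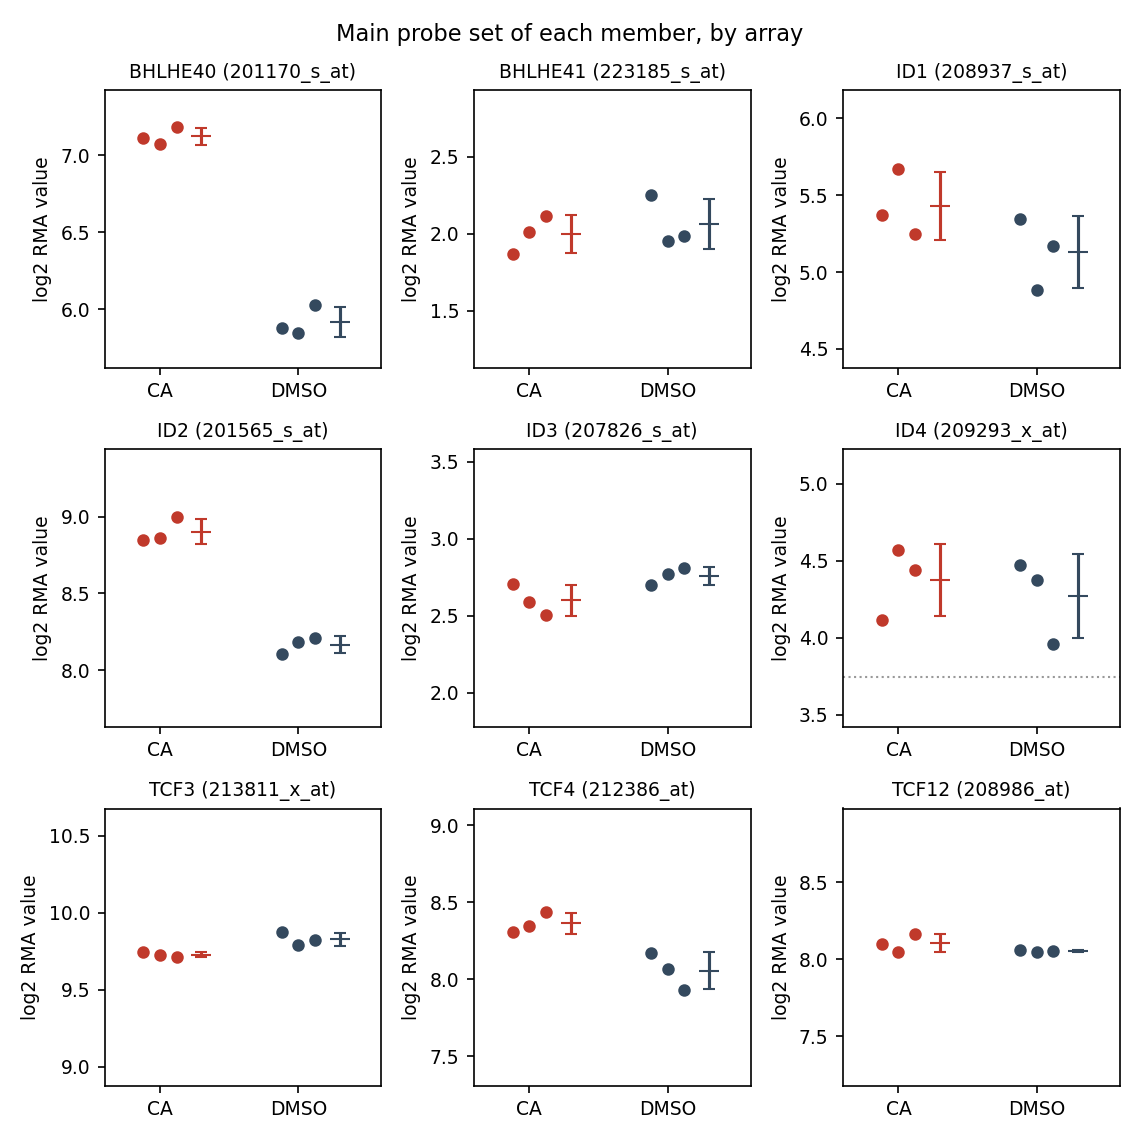
Log2 RMA value of the main probe set of each of the 9 genes on each array, with 3 cortistatin A arrays (CA, red) left of 3 DMSO arrays (blue) and the mean ± SD beside each group. Every panel spans 1.8 log2 units and the dotted line is the median of all probe sets (3.74) where it falls in the panel. BHLHE40 and ID2 show a clear gap between the groups, TCF4 a smaller gap upward and TCF3 a small gap downward.

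BHLHE40, the repressor that binds CACGTG, was read by 2 probe sets that disagree. Its main probe set, 201170_s_at, gave log2 values of 7.11, 7.08 and 7.18 on the cortistatin A arrays, against 5.88, 5.85 and 6.03 on the DMSO arrays. All 3 cortistatin A arrays were above all DMSO arrays, and the gap between the groups was several times the spread within either. The means were 7.12 ± 0.05 and 5.92 ± 0.10 (SD, n = 3 each), a difference of 1.21 ± 0.07 (limma SE) or 2.31-fold. This was the highest change of all genes with this choice of probe set, rank 1 of 19775. The gene was chosen for this rise, and over all 54613 probe sets the highest change was 1.49.

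The other BHLHE40 probe set, 201169_s_at, gave 3.96, 3.74 and 4.09 with cortistatin A and 3.95, 3.74 and 3.92 in DMSO. These groups overlapped, and the difference was 0.06 ± 0.11 (limma SE in the fit of all probe sets, 95% interval -0.19 to 0.31). Its mean of 3.90 lay just above that median of 3.74. With the mean of the 2 probe sets the difference of BHLHE40 was 0.63 ± 0.08. Which part of the transcript each probe set reads was not analysed here, and the annotation gives BHLHE40 as the only gene of both.

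BHLHE41, the close relative of BHLHE40, was at the low end of the arrays. Its 4 probe sets had means of 1.42 to 2.03, all in the dim range. The main one, 223185_s_at, gave 1.87, 2.01 and 2.11 with cortistatin A and 2.25, 1.95 and 1.99 in DMSO. The groups overlapped for all 4 probe sets, and the difference of the main one was -0.07 ± 0.10 (limma adjusted p = 0.839, 95% interval -0.31 to 0.18). At this signal a difference in BHLHE41 was not detectable.

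ID2, which binds E proteins and keeps them from DNA, was higher with both of its probe sets. The main one, 201565_s_at, gave 8.85, 8.86 and 8.997 on the cortistatin A arrays, against 8.11, 8.18 and 8.21 on the DMSO arrays. The means were 8.90 ± 0.08 with cortistatin A and 8.17 ± 0.05 in DMSO (SD, n = 3 each), a difference of 0.73 ± 0.06 (limma SE), or 1.66-fold. It ranked 10 of 19775 by change. The other probe set, 201566_x_at, of a type that can cross-hybridise, gave 6.84, 6.69 and 6.91 with cortistatin A and 5.97, 6.35 and 6.32 in DMSO. Its groups did not overlap either, and its difference was 0.60 ± 0.12 (limma SE in the fit of all probe sets). In that fit 201566_x_at did not pass (limma adjusted p = 0.194), while 201565_s_at did (limma adjusted p = 0.043). Both ID2 probe sets thus stood higher with cortistatin A, where those of BHLHE40 disagreed.

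With 1 array left out at a time, the size of the difference ran from 1.17 to 1.26 for BHLHE40 and from 0.69 to 0.76 for ID2. Since the groups do not overlap, leaving out an array could not have turned either sign.

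Signal along the control transcripts was also compared, as a measure of RNA quality. The beta-actin control, 3′ minus 5′ log2 signal, was 1.88, 1.89 and 2.08 with cortistatin A and 1.77, 1.69 and 1.79 in DMSO. All cortistatin A values were above all DMSO values (exact permutation test, two-sided, p = 0.1, which is as low as 6 arrays can give). The mean over 22 pairs of 3′ and 5′ control probe sets, most of them for bacterial or phage spike-ins, overlapped at 0.72 to 0.77 with cortistatin A and 0.65 to 0.75 in DMSO (exact permutation test, two-sided, p = 0.4). With the beta-actin value as a covariate the differences were 1.08 ± 0.11 for BHLHE40 and 0.62 ± 0.10 for ID2. With the mean of all controls as a covariate they were 1.21 ± 0.09 and 0.73 ± 0.08 for these genes. Neither fit called any gene of the table, while 1768 genes in the beta-actin fit and 1960 in the other had an unadjusted p under 0.05. Because the beta-actin values of the groups do not overlap, the beta-actin signal and the drug cannot be fully told apart in that fit. The part of RNA quality in these differences was not tested.

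ID1, ID3 and ID4 did not pass the test. ID1, a classical target of BMP signalling, gave 5.37, 5.67 and 5.24 with cortistatin A and 5.34, 4.88 and 5.17 in DMSO. The cortistatin A arrays tended higher but the groups overlapped. The difference was 0.30 ± 0.15 (limma adjusted p = 0.479), with a 95% interval of -0.06 to 0.65 that includes 0. Leaving out DMSO replicate 2 gave 0.17, leaving out cortistatin A replicate 2 gave 0.18, and leaving out DMSO replicate 1 gave 0.40.

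ID3, another BMP target, had a single dim probe set with 2.71, 2.59 and 2.50 in cortistatin A and 2.69, 2.77 and 2.81 in DMSO. The groups overlapped by 1 array, and the difference was -0.16 ± 0.07 (limma adjusted p = 0.408). ID4 was above the median of all probe sets with only 1 of its 5 probe sets, 209293_x_at, at 4.12, 4.57 and 4.44 with cortistatin A and 4.47, 4.38 and 3.96 in DMSO. That probe set, of a type that can cross-hybridise, differed by 0.11 ± 0.17 (limma adjusted p = 0.842). The 4 dim ID4 probe sets lay between -0.19 and -0.02, so the sign for ID4 turns with the probe set chosen.

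**Figure D2:**
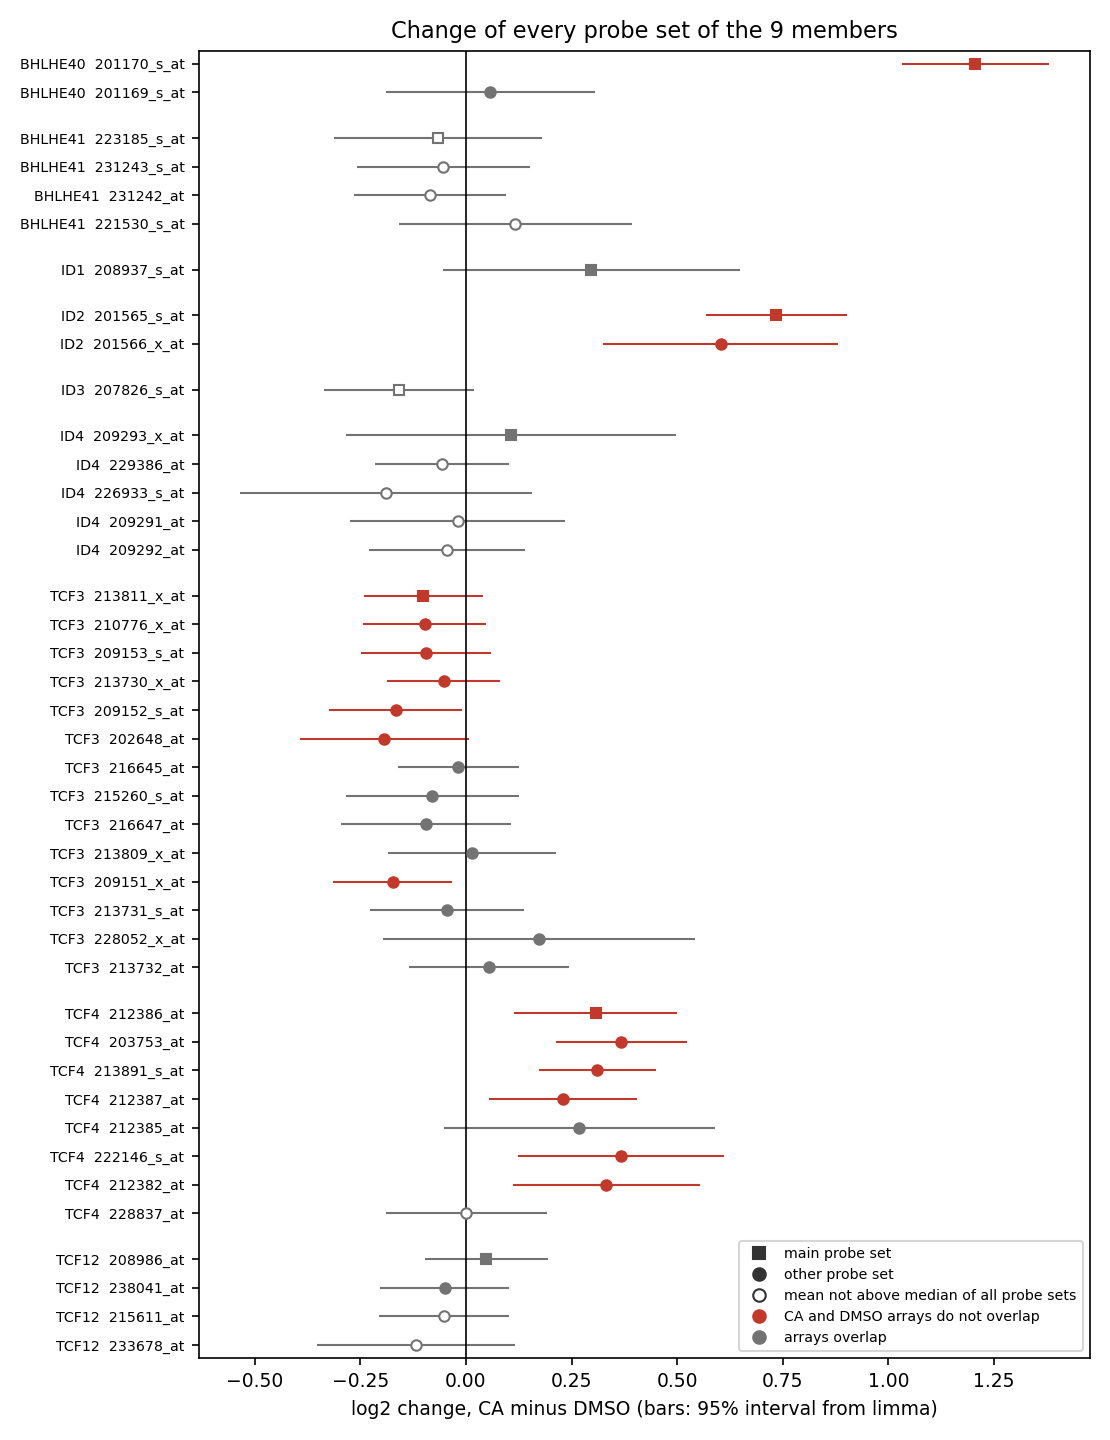
Log2 change, cortistatin A minus DMSO, of all 41 probe sets of the 9 genes, with 95% intervals from the limma fit of all probe sets. Squares mark the main probe set of a gene, open symbols mark probe sets not above the median of all probe sets, and red marks probe sets whose groups do not overlap. The 2 BHLHE40 probe sets stand apart from each other, both ID2 probe sets lie to the right of 0, 7 of 8 TCF4 probe sets lie between 0.23 and 0.37, and most TCF3 probe sets lie slightly left of 0.

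TCF4, the E protein also called E2-2 and known for its role in plasmacytoid dendritic cells, was read alike by most of its 8 probe sets. The main one, 212386_at, gave 8.31, 8.35 and 8.44 on the cortistatin A arrays, against 8.17, 8.07 and 7.93 on the DMSO arrays. The groups did not overlap. The difference of 0.31 ± 0.08, or 1.24-fold (95% interval 0.13 to 0.49), did not pass over all genes (limma adjusted p = 0.185). TCF4 ranked 399 of 19775 by change.

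Of the 7 TCF4 probe sets above the median of all probe sets, all 7 had positive differences, from 0.23 to 0.37. The groups did not overlap for 6 of these 7, beside 16.5% of all probe sets, dim ones included. The exception was 212385_at, where the cortistatin A arrays gave 6.33, 6.39 and 6.32 and DMSO replicate 1 stood above them at 6.41. The remaining probe set, 228837_at, was dim and differed by 0.00. The second brightest, 203753_at, gave 7.85, 7.85 and 7.92 with cortistatin A and 7.53, 7.56 and 7.43 in DMSO. It differed by 0.37 ± 0.07, with a limma adjusted p of 0.159 over all probe sets, the lowest among the TCF4 probe sets. An unadjusted limma p under 0.05 was reached by 6 of the 8, beside 5631 of all 54613 probe sets, dim ones included. Probe sets of 1 gene read the same RNA on the same arrays and are not replicates of the treatment. TCF4 was called only when limma was run with its trend and robust options (adjusted p = 0.00643, against up to 0.677 under other settings), which called 762 genes. With the beta-actin covariate its difference was 0.23 ± 0.14.

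TCF3, which encodes the E proteins E12 and E47, lay slightly lower with cortistatin A. The main probe set, 213811_x_at, gave 9.74, 9.72 and 9.71 with cortistatin A and 9.87, 9.79 and 9.82 in DMSO. The groups did not overlap, but the difference was -0.10 ± 0.05 (limma adjusted p = 0.461, 95% interval -0.22 to 0.02). All 14 TCF3 probe sets were above the median of all probe sets. Differences were negative for 11 of them and positive for 3, from -0.19 to 0.17 with a median of -0.09. The groups did not overlap for 7 of the 14, all lower with cortistatin A. Of all probe sets, dim ones included, 16.5% were separate in either direction. The probe set 202648_at, which is not of a cross-hybridising type, gave 6.30, 6.34 and 6.45 with cortistatin A and 6.49, 6.47 and 6.71 in DMSO, a difference of -0.19 ± 0.08 (limma SE in the fit of all probe sets). None of the 14 passed over all probe sets, where the lowest limma adjusted p was 0.401. An unadjusted limma p under 0.05 was reached by 2 of the 14, beside 5631 of all 54613 probe sets, dim ones included.

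TCF12, the E protein also called HEB, had no detectable difference. Its main probe set, 208986_at, gave 8.10, 8.05 and 8.16 with cortistatin A and 8.06, 8.05 and 8.06 in DMSO, a difference of 0.05 ± 0.05 (limma adjusted p = 0.758). The groups overlapped, and the 95% interval ran from -0.07 to 0.17. The other bright TCF12 probe set, 238041_at, differed by -0.05 and the 2 dim ones by -0.05 and -0.12, all with overlapping groups.

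Over the 41 probe sets, 2 were called, 201170_s_at of BHLHE40 and 201565_s_at of ID2, where 0.0513% of all probe sets were called. The differences were positive for 19 and negative for 22 probe sets. Of the 29 above the median of all probe sets, 17 were positive and 12 negative. Of the 41 the groups did not overlap for 16, 9 of them higher and 7 lower, beside 16.5% of all probe sets. Of the 9 higher ones 3 belong to BHLHE40 and ID2, which were chosen on this contrast. For the 12 dim probe sets the groups always overlapped. The 9 higher ones belonged to BHLHE40, ID2 and TCF4 and the 7 lower ones to TCF3.

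**Figure D3:**
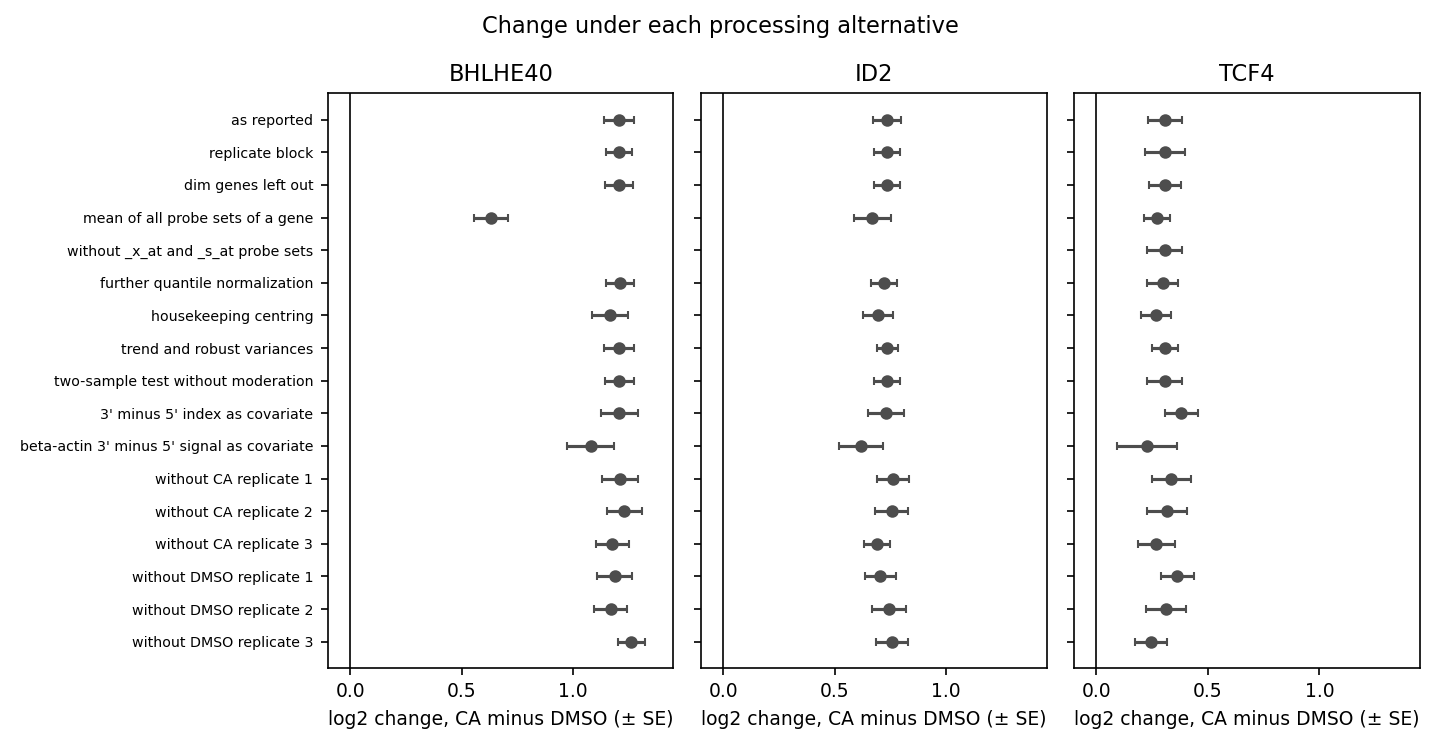
Log2 change, cortistatin A minus DMSO, ± SE of BHLHE40, ID2 and TCF4 as reported (top) and under each processing alternative. BHLHE40 and ID2 have no probe set left without the _x_at and _s_at types. The BHLHE40 value drops to 0.63 with the mean of its 2 probe sets, while ID2 stays between 0.62 and 0.76 and TCF4 between 0.23 and 0.38.

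The partners of the E proteins were looked at next. Of 25 tissue-restricted basic helix-loop-helix genes, 21 were measured, 9 of them above the median of all probe sets, and 0 passed in either direction by limma, with 2 at an unadjusted p under 0.05 (median 0.06). OLIG1, best known from oligodendrocyte development, was at 6.03 ± 0.06 with cortistatin A and 5.57 ± 0.10 in DMSO (SD, n = 3 each), a difference of 0.46 ± 0.07 that missed the threshold (limma adjusted p = 0.0541, and under it in 4 of 16 alternatives). It was the only one of the 21 whose groups did not overlap, beside 19.4% of all genes. TCF15 differed by 0.19 ± 0.08 and ASCL2 by 0.13 ± 0.08 (limma adjusted p = 0.385 and 0.573).

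The list of TAL1 complex partners and ETO corepressors, proteins that assemble on or bind to E protein pairs, had 10 of 11 genes measured, all above the median of all probe sets. In this list 1 gene was called higher and 0 lower by limma, with 3 at an unadjusted p under 0.05 (12.6% of all genes were). Differences were positive for 7 and negative for 3, with a median of 0.10, beside 0.0065 over all genes. GATA2, a zinc finger factor of blood progenitors that joins TAL1 on DNA, gave 6.72, 6.60 and 6.84 on the cortistatin A arrays, against 6.14, 6.15 and 6.26 on the DMSO arrays. It rose by 0.53 ± 0.08 (limma adjusted p = 0.0452), with its other 2 probe sets at 0.18 and 0.06. The groups did not overlap for 5 of the 10, GATA2, LMO2, CBFA2T3, SSBP2 and LMO4, all higher with cortistatin A, where 10.2% of all genes were separate in that direction. LMO4 was the smallest of these at 0.10, and its sign turned when other probe sets were used. The GATA2 call was lost in 13 of 16 alternatives. These included leaving out any 1 of the 6 arrays (limma adjusted p from 0.0946 to 0.204), housekeeping centring (0.0699), leaving out the _x_at and _s_at types (0.0606), the two-sample test without moderation (0.145) and both covariates, and its difference was 0.26 when its probe sets were averaged and 0.36 with the beta-actin covariate.

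Other E-box repressors and the clock genes did not pass. Of 10 HES and HEY repressors, 9 were measured, 4 of them above the median of all probe sets, and 0 passed in either direction by limma, with 0 at an unadjusted p under 0.05 (median 0.07). HES2, HES7 and HEYL differed by 0.13, -0.16 and 0.08 (limma adjusted p = 0.577, 0.711 and 0.719). Of 17 clock genes, 15 were measured, 11 above the median of all probe sets, and 0 passed by limma, with 3 at an unadjusted p under 0.05 (median -0.0002). The groups did not overlap for 4 of the 15, 3 higher and 1 lower with cortistatin A, beside 19.4% of all genes. NFIL3, a repressor of D-box genes, was at 7.28 ± 0.08 with cortistatin A and 6.998 ± 0.065 in DMSO (SD, n = 3 each, limma adjusted p = 0.173). DBP, a D-box activator under E-box control, was at 4.92 ± 0.12 with cortistatin A and 5.18 ± 0.08 in DMSO (limma adjusted p = 0.253). BMAL1, the E-box activator that BHLHE40 opposes, differed by -0.20 ± 0.10 (limma adjusted p = 0.469). CIART, a clock repressor singled out after its value was seen, was dim at 3.42 ± 0.04 with cortistatin A and 2.93 ± 0.15 in DMSO (SD, n = 3 each, limma adjusted p = 0.0783).

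The BMP receptors and SMADs, the pathway known to switch on ID1, ID2 and ID3, had 16 of 17 genes measured, 12 of them above the median of all probe sets. None passed by limma, 5 had an unadjusted p under 0.05 (12.6% of all genes did), and the median difference was -0.08. SMURF1, a ubiquitin ligase that removes SMADs, differed by -0.25 ± 0.05, the type I receptor gene ACVR1 by -0.40 ± 0.09 and the inhibitory SMAD6 by -0.26 ± 0.09 (limma adjusted p = 0.105, 0.171 and 0.314). For SMAD6 2 other probe sets above the median stood at 0.21 and 0.08, so its sign depends on the probe set. With the mean of its probe sets SMURF1 differed by -0.06. Its other probe sets above the median stood at -0.09 and -0.14, and its dim ones at 0.09 and 0.11. The groups did not overlap for 6 of the 16, with ACVR2A and SMAD7 higher and ACVR1, SMAD6, SMURF1 and SMURF2 lower with cortistatin A, where 10.2% of all genes were separate higher and 9.22% lower. ACVR2A too turned its sign when other probe sets were used.

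**Figure D4:**
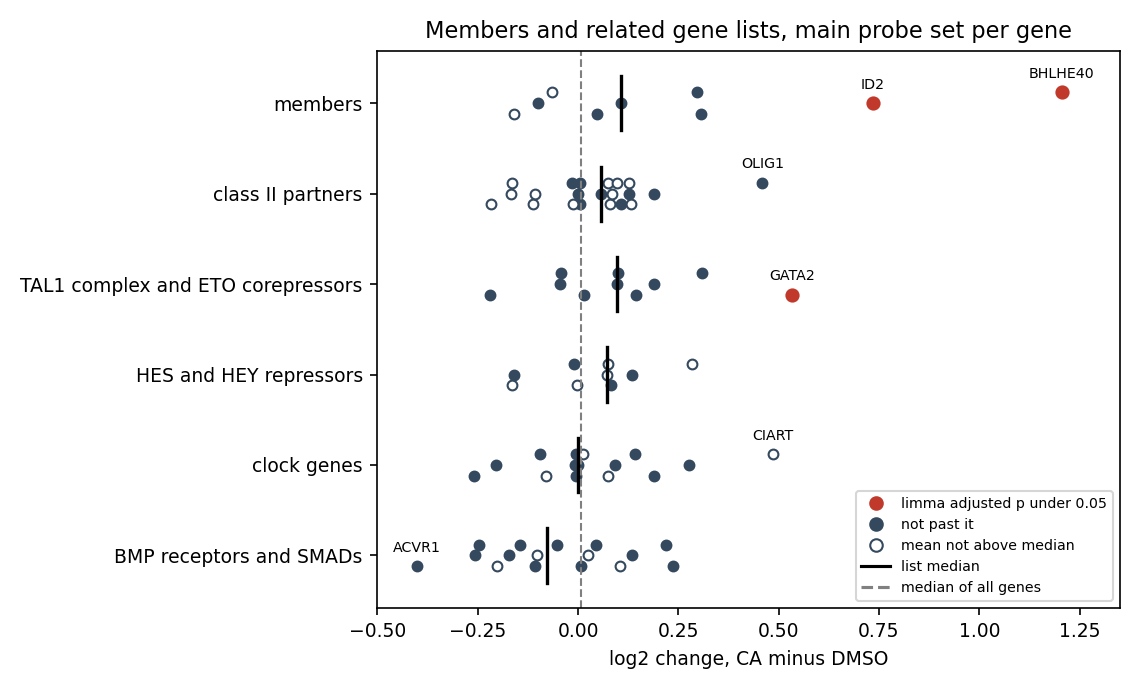
Log2 change, cortistatin A minus DMSO, of the main probe set of each measured gene in the 9-gene group and in the 5 related lists. Red marks genes past the limma threshold (BHLHE40 and ID2 were chosen on this contrast), open symbols mark dim genes, black bars show list medians, and the dashed line is the median of all genes. GATA2 (0.53) is the only red point outside the 9-gene group, and list medians lie between -0.08 and 0.11.

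Over the 6 arrays, the genes whose values ran most like those of BHLHE40, among 12636 others above the median of all probe sets, were TMEM33, TWNK, MORN2, SLC15A4 and ABHD15 (Pearson r from 0.9971 to 0.9996). Those most like ID2 were DUSP10, LMO2, FGL2, CSGALNACT1 and GFI1 (r from 0.9975 to 0.9988). The arrays fall into 2 groups, so r mostly carries the gap between the groups and says little of its size. TMEM33 differed by only 0.08 between the groups, against 1.21 for BHLHE40. The lysosomal transporter gene SLC15A4 differed by 0.65, and the phosphatase gene DUSP10 by 0.42. LMO2, the bridging protein of the TAL1 complex, was at 10.62 ± 0.04 with cortistatin A and 10.31 ± 0.02 in DMSO (SD, n = 3 each), a difference of 0.31 ± 0.05 (limma adjusted p = 0.0619). GFI1, a myeloid repressor that is not a helix-loop-helix protein, differed by 0.27.

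Marker genes of the labelled line and of other cell types were also read. Of all 19775 genes 12637 were above the median of all probe sets, so being above it does not identify a cell type. Of 12 myelomonocytic leukaemia genes 9 were measured and 8 were above the median of all probe sets, while the monocyte gene CD14 was dim. In this list 0 passed by limma and 2 had an unadjusted p under 0.05. The receptor kinase gene FLT3 differed by -0.20 ± 0.05 and the homeobox gene MEIS1 by 0.18 ± 0.05 (limma adjusted p = 0.196 and 0.217). The groups did not overlap for these 2 of the 9, beside 19.4% of all genes. Of 18 measured markers of B, T, erythroid, epithelial and fibroblast cells 10 were above that median and 0 passed by limma, with 1 at an unadjusted p under 0.05. The summed log2 level of each of these 5 lists overlapped between the groups. Of 23 measured housekeeping genes 0 passed by limma, 1 had an unadjusted p under 0.05, and the median difference was -0.0037. Their groups did not overlap for 6 of the 23, 3 higher and 3 lower with cortistatin A, beside 19.4% of all genes.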

How the data were processed

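RNA of MV4;11 cells was hybridised to single-colour Affymetrix Human U133 Plus arrays, 3 with cortistatin A and 3 with DMSO. The deposited values are 1 per probe set and array, made with RMA and the affy package per the submitters' processing notes, with no version. The authors' table does not state its scale: it was taken as log2 because RMA gives log2 and the values lay between 0.81 and 13.84. RMA usually evens out array distributions, so a shift of all transcripts would not be seen. Arrays have no read depth; their number limits the precision. RNA was isolated with a column kit or TRIzol per the labels' protocols, and the labels do not tie either to an array.

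Of 54675 probe sets 62 are controls, 41091 name 1 gene, 1801 several and 11721 none in the platform annotation. Symbols came through the RefSeq gene table for 41037 probe sets, and 54 kept the platform symbol. The brightest single-gene probe set gave each gene's value. Groups were compared with limma 3.58.1 in R 4.3.3 (lmFit, eBayes, group alone, two-sided, Benjamini-Hochberg adjusted p under 0.05 over all 19775 genes or, for probe sets, over all 54613), with 4 residual and 2.68 prior degrees of freedom. The scripts were tested on simulated data. Control indices were compared with an exact permutation test. Motifs were counted on both strands of the RefSeq promoter windows.

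The members, the lists and the alternatives were chosen with earlier results of these data known. Named are all 9 members with every probe set, from each related list the genes past the threshold or else the 3 with the smallest p among genes brighter than the overall median, the 5 genes with the highest r to BHLHE40 and to ID2, and, chosen after their values were seen, CIART, CD14 and the genes of the TAL1 and BMP lists whose groups did not overlap. The alternatives tried were a block for the replicate number, leaving out dim genes, the mean of a gene's probe sets, no _x_at and _s_at probe sets, a further quantile normalization, housekeeping centring, trend and robust variances, a two-sample test without moderation, control signal as a covariate and each array left out. The covariate with the beta-actin signal alone was added after seeing the data.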

Additional observations from a re-analysis of the deposited data

How the results depend on the processing

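The count of genes called moved most. From 115 as reported it went to 0 with the replicate block, with the control index or the beta-actin signal as a covariate, to 25 with the two-sample test without moderation, 54 without the _x_at and _s_at probe sets, 61 with housekeeping centring, 76 with the mean of probe sets, 321 with dim genes left out (fewer genes tested) and 762 with trend and robust variances. It was 0 to 4 with an array left out. Members called went from 2 to 1 with the two-sample test, to 0 with the block, with either covariate and without the _x_at and _s_at types (where BHLHE40, ID1, ID2 and ID3 have no probe set), and to 0 to 1 with an array left out. The 2 member probe sets called became 6 with trend and robust variances, 1 with housekeeping centring, and 0 with the block, either covariate, the two-sample test, without those types or with any array left out. Apart from these constructions the cause was not tested.

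Same-numbered arrays did not deviate together (r = -0.09, 0.01 and -0.01 over 12637 genes). With 3 arrays per group this cannot tell whether the numbers pair the samples. With the replicate block the changes were the same and 2243 genes had an unadjusted p under 0.05. BHLHE40 kept its sign in 15 alternatives (0.63 to 1.26) and ID2 in 15 (0.62 to 0.76), and ID1, ID3, TCF3 and TCF4 kept theirs in all of theirs. Signs turned for 7 genes. With the mean of probe sets ID4 was -0.0410, TCF12 -0.0431, LMO4 -0.0183, ACVR2A -0.0482 and SMAD6 0.00604. Without the _x_at and _s_at types ID4 was -0.0569, LMO4 -0.0322, ACVR2A -0.314 and SMAD6 0.0798, where SMAD6 was -0.26 and ACVR2A 0.22 as reported. BHLHE41 was 0.0729 with the control index, and TCF12 was -0.0295 and HEYL -0.113 with the beta-actin covariate. With an array left out BHLHE41 ran from -0.124 to 0.0274, turning without DMSO replicate 1, and ID4 from -0.0494 to 0.236, turning without DMSO replicate 3. Housekeeping centring moved every change by -0.04. The control index difference (0.04) was 0.20 for beta-actin and 0.05 for GAPDH alone, and 0.01 to 0.06 with an array left out.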
